A study of Mus musculus with 6 samples.

Results

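Selenoprotein genes were followed in mouse endothelial cells sequenced one by one. The 9 genes described were Selenop, Selenow, Selenok, Selenof, Selenom, Gpx1, Gpx3, Gpx4 and Txnrd1, of 32285 genes in the count tables. They were chosen with their levels in these endothelial cells and their differences between the libraries already known, so values within the 3 pairs of libraries are given as descriptions, with no test. The level of a gene is its number of UMIs (unique molecular identifiers, random tags that mark 1 captured RNA molecule each) summed over the endothelial cells of a library, per 1000000 endothelial UMIs (CPM). A cell was taken as endothelial where it held at least 500 genes, at most 10% mitochondrial UMIs and a UMI of at least 3 of the 6 genes Pecam1, Cldn5, Cdh5, Flt1, Esam and Egfl7.

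The study deleted Pdcd10, also called Ccm3, from brain endothelium, a mouse model of cerebral cavernous malformation, and its title concerns signalling by mTORC1, the kinase complex that rapamycin inhibits. All 6 libraries came from mice carrying Mfsd2a-CreERT2, a tamoxifen-activated Cre under the control of the endothelial transporter gene Mfsd2a, and all were given tamoxifen. WT P6 and WT P10 carried Mfsd2a-CreERT2 alone, and KO P6 and KO P10 carried it with Pdcd10fl/fl. These 4 received tamoxifen on postnatal day 1 (P1) and were harvested on day 6 or day 10. KO P9 vehicle and KO P9 rapamycin carried Mfsd2a-CreERT2:Pdcd10fl/fl, received tamoxifen with vehicle or with rapamycin, and are dated to day 9 by their descriptions. The sources used here state neither the tamoxifen day of this pair nor the dose of rapamycin. Each group is 1 library, so no difference within a pair has a replicate check, intervals cover counting error only, and the labels do not say how many animals entered a library.

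Selenoproteins carry selenocysteine, an amino acid inserted at an in-frame UGA codon that would otherwise end translation. Their production depends on selenium supply, much of which travels as selenoprotein P (Selenop), a secreted protein that cells take up through receptors such as Lrp8. Many of the others are enzymes that reduce peroxides or protein thiols, and in the brain selenium reaches the tissue across its endothelium.

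The defining feature shared by the 9 genes is that codon, which is printed here within the coding strand of the GENCODE vM21 transcripts (GRCm38, also called mm10). Capitals mark the selenocysteine codon, written TGA in DNA letters, with up to 12 coding bases on each side. Selenop is set apart by its number of such codons, 10 in a reading frame of 380 codons against 1 in each of the other 8, so its first site and the 4 sites nearest its end are shown with the single site of each of the others.
Selenop codon 59: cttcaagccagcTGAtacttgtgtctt
Selenop codon 366: gccaaccccaacTGAagctgagataat
Selenop codon 368: cccaactgaagcTGAgataatcagacc
Selenop codon 375: cagaccaggaagTGAaaatgacattca
Selenop codon 377: aggaagtgaaaaTGAcattcaaac
Gpx1 codon 47: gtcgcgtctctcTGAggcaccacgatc
Gpx3 codon 73: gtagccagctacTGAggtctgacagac
Gpx4 codon 73: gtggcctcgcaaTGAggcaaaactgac
Txnrd1 codon 498: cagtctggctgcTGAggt
Selenof codon 93: gaagtctgcggaTGAaaattggggagg
Selenom codon 48: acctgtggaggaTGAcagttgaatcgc
Selenok codon 92: atggctggtggaTGAggaagg
Selenow codon 13: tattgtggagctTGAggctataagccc

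The first Selenop codon lies at chr15:3274848-3274850, on the plus strand, within a gene at chr15:3268547-3280508 (ENSMUSG00000064373). In Txnrd1 (ENSMUSG00000020250, chr10:82833951-82897712, plus strand) the codon at chr10:82896037-82896039 is followed by 1 more codon of 499. In Selenok (ENSMUSG00000042682, chr14:29968308-29975662, plus strand) the codon at chr14:29973440-29973442 is number 92 of 94, so in both genes nearly the whole protein precedes it. In Selenow (ENSMUSG00000041571, chr7:15917208-15922402, minus strand) the codon at chr7:15920464-15920466 is number 13 of 88, near the start. The other codons lie inside the reading frame, at chr9:108339451-108339453 in Gpx1 (ENSMUSG00000063856, codon 47 of 201), chr11:54907256-54907258 in Gpx3 (ENSMUSG00000018339, 73 of 226), chr10:80054737-80054739 in Gpx4 (ENSMUSG00000075706, 73 of 197), chr3:144590645-144590647 in Selenof (ENSMUSG00000037072, 93 of 162) and chr11:3516273-3516275 in Selenom (ENSMUSG00000075702, 48 of 145). The 3' tag counts measure how much RNA of each gene was captured and do not show whether the codon was read.

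The 6 libraries held 14165 endothelial cells among 18568 barcodes, with 857 to 3768 endothelial cells and 9883763 to 36629558 endothelial UMIs per library. The labels name the tissue as retina while the series describes brain vessels. Summed markers of photoreceptors and other retinal cells came to 4.34 to 9.10 CPM over all kept cells, with 0 UMIs of Rcvrn in every library, and 8 endothelial markers outside the cell rule came to 2755 to 3894 CPM. Pdcd10 was at 104 and 102 CPM in the WT libraries, 58.4 and 58.2 in KO P6 and KO P10, 44.9 in KO P9 vehicle and 80.6 in KO P9 rapamycin. The P9 libraries shared 420 barcodes with each other, of which 4 belonged to endothelial cells in each. Leaving out every endothelial cell with a barcode found in another library gave Selenop log2 ratios of -1.93, -1.76 and 0.97 in the P6, P10 and P9 pairs, against -1.93, -1.76 and 0.98 with them.

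Selenop, the secreted selenium carrier, was lower in both KO libraries than in their WT libraries and higher with rapamycin than with vehicle. It stood at 3989.7 CPM in WT P6, 1046 in KO P6, 3377 in WT P10, 995 in KO P10, 337 in KO P9 vehicle and 662 in KO P9 rapamycin. Both WT libraries lay above both of the P6 and P10 KO libraries. How many of all genes separate these libraries in the same way was not counted, and Selenop was chosen with its values known. In ratios, KO P6 held 0.262 of the WT P6 level (95% counting interval 0.257 to 0.268) and KO P10 held 0.295 of the WT P10 level (0.290 to 0.299). The rapamycin library held 1.97 times the vehicle level (1.92 to 2.01). Pdcd10, the deleted gene, was itself higher in the rapamycin library (80.6 CPM) than in vehicle (44.9), KO P6 (58.4) and KO P10 (58.2), so the P9 ratios of all 9 genes compare libraries that also differ in Pdcd10 RNA, and its part in them was not tested. The sums rest on 10334 to 70031 Selenop UMIs, so counting error is small beside these ratios. In sums over cells, fewer cells with the RNA and less RNA per cell cannot be told apart. Values per cell are described next.

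**Figure D1:**
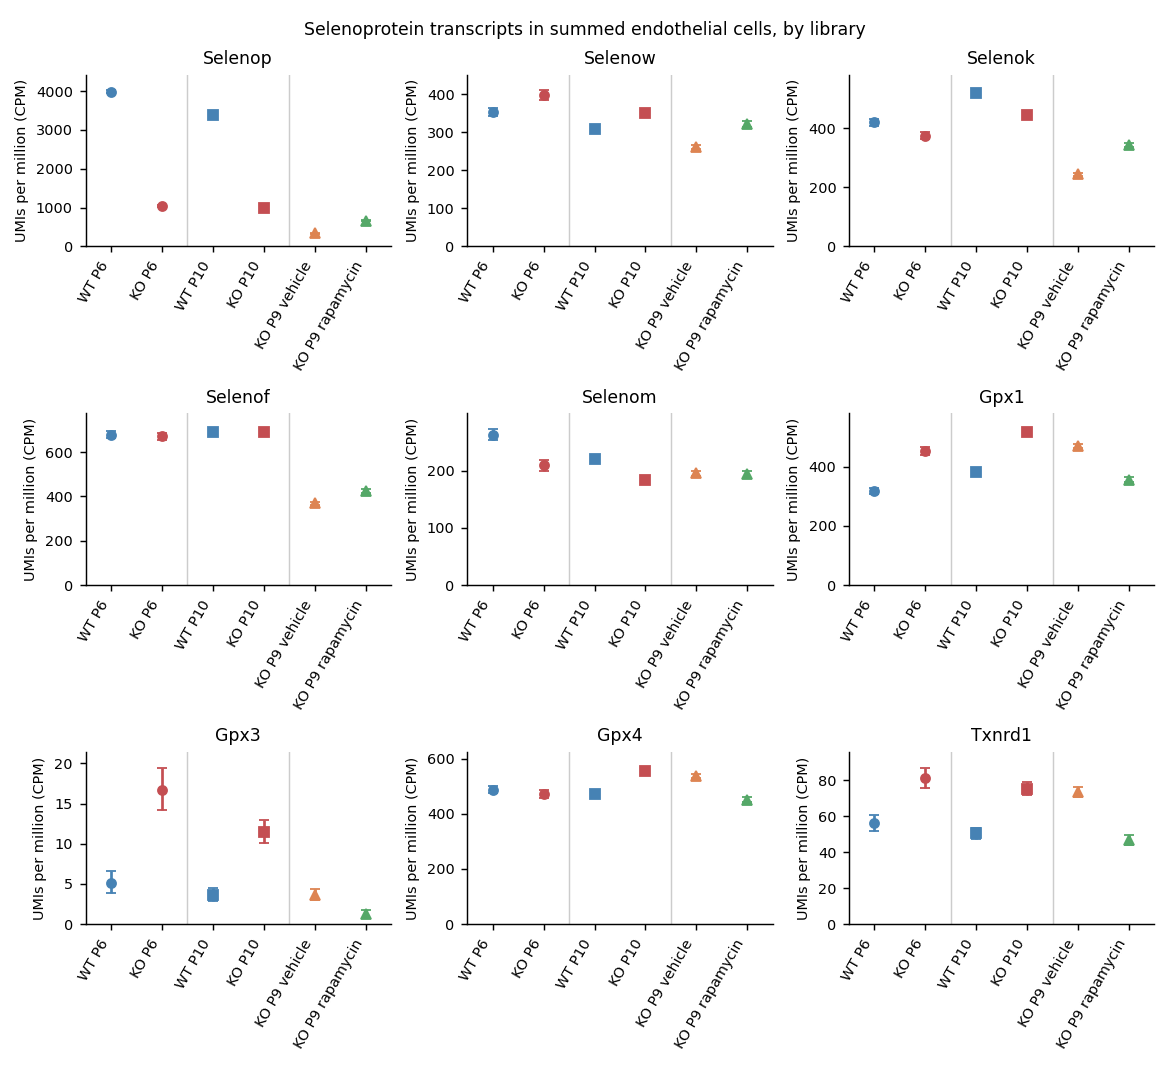
Level of each of the 9 genes in CPM in the 6 libraries (1 library per group), 1 panel per gene with its own axis from 0, and 95% Poisson counting intervals. Selenop is at 3989.7 and 3377 CPM in the WT libraries and between 337 and 1046 CPM in the 4 KO libraries.

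To compare single cells at one depth, each endothelial cell was thinned to 2000 UMIs, which left out 28 to 375 shallower cells per library. At that depth 96.0% of WT P6 and 93.0% of WT P10 cells held a Selenop UMI, against 70.3% of KO P6, 67.8% of KO P10, 42.7% of KO P9 vehicle and 59.1% of KO P9 rapamycin cells. Unthinned cells gave 98.5%, 98.0%, 92.1%, 88.5%, 75.8% and 92.1% in that order. The median cell held 6 Selenop UMIs in each WT library, 1 in KO P6, KO P10 and KO P9 rapamycin, and 0 in KO P9 vehicle. Cells with at least 5 Selenop UMIs made up 62.6% and 57.5% of the WT P6 and WT P10 cells, 16.2% and 14.3% in KO P6 and KO P10, 2.74% with vehicle and 8.85% with rapamycin. Among cells with a UMI, the mean was 8.92 and 8.03 UMIs in the WT libraries, 3.46 and 3.35 in KO P6 and KO P10, 1.87 with vehicle and 2.73 with rapamycin. Both the share of thinned cells with a Selenop UMI and their mean were lower in the KO library of the P6 and P10 pairs. Both were also lower with vehicle than with rapamycin. A lower level in every cell would also lower both values after thinning, so they do not separate fewer cells from less RNA per cell.

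**Figure D2:**
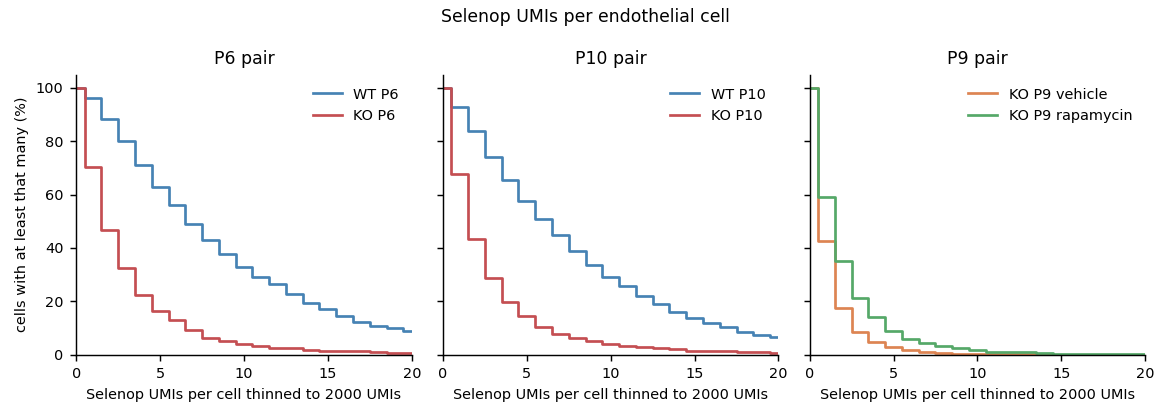
Share of endothelial cells (percent) that hold at least the number of Selenop UMIs on the x axis after thinning to 2000 UMIs, 1 step curve per library. The WT curves stay highest, with 62.6% and 57.5% of cells at 5 or more UMIs, and the vehicle curve is lowest at 2.74%.

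No handful of cells made up the Selenop sums. The 10 cells with most Selenop held 4.93% of its UMIs in WT P6, 9.86% in KO P6, 1.90% in WT P10, 3.93% in KO P10, 3.87% with vehicle and 6.51% with rapamycin. Free RNA was judged in P6 cells with neuronal markers, with every cell thinned to 500 UMIs. Selenop was found in 1.79% of 56 such cells in WT P6 (95% exact Clopper-Pearson interval 0.0452% to 9.55%, median depth 3976 UMIs) and in 0% of 59 in KO P6 (up to 6.06%, 4506 UMIs). Endothelial cells thinned alike held it in 72.0% and 35.7% of cells, with median depths before thinning of 6962.5 and 9067 UMIs. The same comparison placed Gpx1 at 1.79% and 6.78% of the neuronal cells against 13.9% and 17.9% of endothelial cells. For Selenok the neuronal shares, 35.7% and 28.8%, were above the endothelial 19.3% and 17.5%, so neuronal cells, which may express the gene themselves, give no background level for it. Gpx4 (21.4% and 18.6% in neuronal cells) and Txnrd1 (3.57% and 8.47%) likewise gave none.

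RNA of other cell types was present in the endothelial sums and moved with the groups. The 10 pericyte markers, none of them at 0, summed to 1154, 1140, 1081, 566, 273 and 488 CPM, in the order WT P6 and KO P6, then WT P10 and KO P10, then vehicle and rapamycin. Cells with a UMI of at least 2 of these markers made up 28.7%, 21.2%, 15.0%, 9.94%, 4.49% and 8.61% of endothelial cells in the same order. Without those cells the Selenop log2 ratio was -2.03 in the P6 pair, -1.83 in the P10 pair and 0.97 in the P9 pair, against -1.93, -1.76 and 0.98 with them. The few cells with a pericyte profile and no endothelial one, 3 to 32 per library, held Selenop at 50.8 to 568 CPM, below the endothelial level of their own library in every case. Astrocyte markers summed to 201 to 402 CPM, neuronal ones to 40.2 to 116, fibroblast ones to 6.81 to 22.6 and microglial ones to 1.92 to 7.04. Leaving out cells with markers of any of the other classes gave -1.97, -1.79 and 1.05. Choroid plexus markers stood at 1766 CPM in KO P9 rapamycin and at 4.54 to 35.0 in the other libraries, and the 3 choroid plexus cells of the rapamycin library held 0 Selenop UMIs among 65633.

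Dividing cells also differed in number. They made up 14.1% and 20.5% of WT P6 and KO P6 endothelial cells, 3.67% and 12.5% of WT P10 and KO P10, 26.5% with vehicle and 9.17% with rapamycin. Without them the Selenop log2 ratios were -1.74, -1.73 and 0.97. Cells with at least 3 UMIs of Plvap, a gene of fenestrated and lesion endothelium, held at most 1.55% of the Selenop UMIs of any library. They were few, at 20 in KO P6, 62 in KO P10, 8 with vehicle, 60 with rapamycin and at most 2 in a WT library. Their Selenop level was 618, 468, 308 and 305 CPM in those KO libraries, against 1054, 1001, 337 and 674 in the other cells. With vehicle their interval (195 to 462 CPM) held the level of the other cells.

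Gpx1, the cytosolic glutathione peroxidase that reduces hydrogen peroxide, was higher in KO than in WT. Its level was 317 CPM in WT P6, 451 in KO P6, 382 in WT P10, 517 in KO P10, 469 with vehicle and 356 with rapamycin. KO P6 held 1.42 times the WT P6 level (1.36 to 1.49), KO P10 held a log2 ratio of 0.44 over WT P10 (counting interval of the ratio 1.32 to 1.39), and rapamycin held 0.758 of vehicle (0.738 to 0.779). The order of the pairs was thus opposite to that of Selenop in all 3. After thinning, a Gpx1 UMI was found in 43.1% and 53.2% of WT P6 and KO P6 cells, 48.2% and 57.4% of WT P10 and KO P10 cells, and 49.99% and 44.6% of vehicle and rapamycin cells.

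Gpx4, which reduces lipid hydroperoxides within membranes and restrains ferroptosis, varied little. It was at 487 CPM in WT P6, 472 in KO P6, 471 in WT P10, 557 in KO P10, 536 with vehicle and 451 with rapamycin. The P6 ratio of 0.970 had a counting interval that held 1 (0.933 to 1.01), while KO P10 was 1.18 times WT P10 (1.15 to 1.21) and rapamycin was 0.840 of vehicle (0.820 to 0.861). The P6 difference was thus within counting error, while the P10 and P9 differences were not.

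Gpx3, the secreted plasma glutathione peroxidase, was rare in these cells. Its sums held 59 UMIs in WT P6 (5.15 CPM), 165 in KO P6 (16.7), 75 in WT P10 (3.62), 269 in KO P10 (11.5), 134 with vehicle (3.66) and 28 with rapamycin (1.24). KO P6 was 3.24 times WT P6 (2.39 to 4.44), KO P10 was 3.17 times WT P10 (2.45 to 4.16), and rapamycin was 0.338 of vehicle (0.216 to 0.511). Only 0.321% to 2.53% of thinned cells held a Gpx3 UMI. The log2 ratios of 1.67, 1.64 and -1.49 became 1.21, 1.11 and -0.96 without cells that carried markers of other classes, and 1.23, 1.68 and -1.37 without pericyte-marked cells. The directions were kept in both settings, and the sizes were smaller in 5 of these 6 values.

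Txnrd1, the cytosolic thioredoxin reductase that keeps thioredoxin reduced, followed the direction of Gpx1. It was at 56.1 CPM in WT P6, 81.1 in KO P6, 50.6 in WT P10, 75.4 in KO P10, 73.3 with vehicle and 46.8 with rapamycin. KO P6 was 1.45 times WT P6 (1.30 to 1.61), KO P10 was 1.49 times WT P10 (1.38 to 1.61), and rapamycin was 0.638 of vehicle (0.594 to 0.686). The log2 ratios of 0.53, 0.57 and -0.65 were 0.52, 0.58 and -0.59 without dividing cells. Without cells carrying markers of other classes they were 0.25, 0.68 and -0.76, so that the P6 value depended most on which cells were summed.

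Selenof and Selenom are thiol-redox proteins of the endoplasmic reticulum, and Selenof binds Uggt1, the sensor of misfolded glycoproteins. Selenof stood at 679, 670.4, 692 and 692 CPM in the P6 pair and then the P10 pair (WT before KO), at 369 with vehicle and at 425 with rapamycin. Its KO over WT ratios, 0.987 (0.956 to 1.02) and 1.0002 (0.978 to 1.02), had intervals that held 1, and rapamycin was 1.15 times vehicle (1.12 to 1.18). Selenom stood at 263, 209, 219.6 and 184 CPM in the same 4 libraries, at 195 with vehicle and at 193 with rapamycin. It was lower in both KO libraries, at 0.795 of WT P6 (0.751 to 0.841) and 0.837 of WT P10 (0.803 to 0.873). Over all endothelial cells its P9 ratio of 0.991 held 1 (0.954 to 1.03), but without dividing cells the P9 log2 ratio was -0.19. Inside the vessel classes described below, the P9 ratio was 0.595 in arterial, 0.843 in capillary and 0.760 in tip cells, with intervals below 1. In venous and mitotic cells it was 1.03 and 1.06, with intervals that held 1.

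Selenok, an endoplasmic reticulum membrane protein that works with the palmitoyltransferase Zdhhc6, stood at 420.4 CPM in WT P6, 375 in KO P6, 519.8 in WT P10, 445 in KO P10, 244 with vehicle and 343 with rapamycin. Its ratios were 0.893 (0.855 to 0.932), 0.857 (0.834 to 0.880) and 1.40 (1.36 to 1.45), the same directions as Selenop at a smaller size. Without dividing cells the P6 log2 ratio was -0.09, against -0.16 with them. By vessel class, the P6 interval lay below 1 in mitotic cells (0.868, 0.791 to 0.951). It held 1 in arterial, capillary, venous and tip cells, with ratios of 0.925 to 1.05. Selenow, a small cytosolic thiol protein, stood at 353, 398, 309.7 and 350.0 CPM in the P6 pair and then the P10 pair (WT before KO), at 261 with vehicle and at 322 with rapamycin. It was higher in the second library of each pair, by ratios of 1.13 (1.08 to 1.18), 1.13 (1.09 to 1.17) and 1.24 (1.20 to 1.28).

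**Figure D3:**
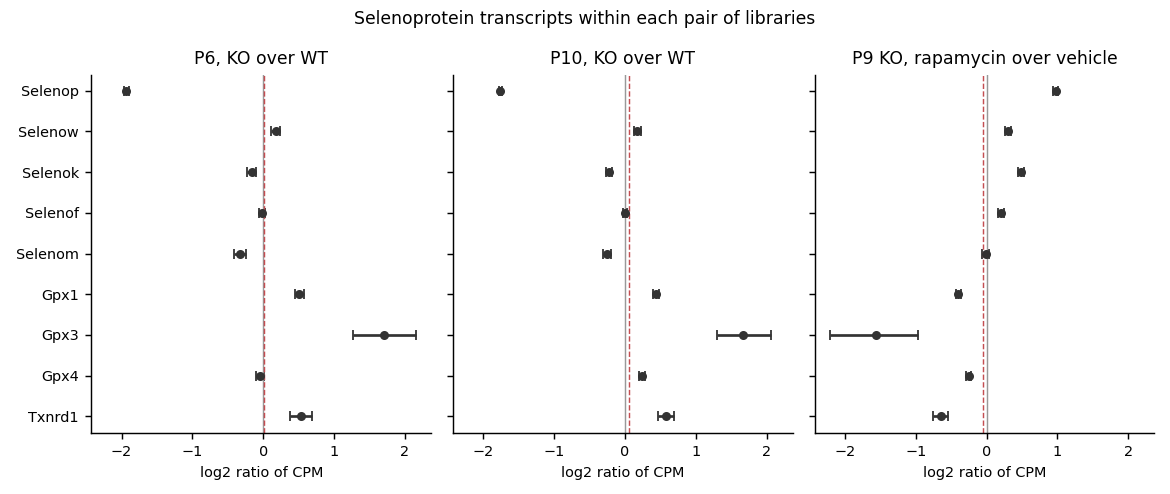
Log2 ratio of each gene within the P6 pair (KO over WT), the P10 pair (KO over WT) and the P9 pair (rapamycin over vehicle), with 95% counting intervals, and a dashed line at the median of all genes of at least 20 CPM. Selenop lies at -1.93, -1.76 and 0.98, while Gpx1, Gpx3 and Txnrd1 lie above 0 in the first 2 pairs and below 0 in the third.

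Read against all genes, most of these differences were common in size. Of the 9 genes, 8 reached 20 CPM in each pair, the exception being Gpx3. In the P6 pair 3 of the 8 had a counting interval above 1 and 3 below 1, where 31.0% and 25.7% of 5835 genes did. In the P10 pair 4 were above and 3 below, against 43.3% and 30.1% of 5837 genes, and in the P9 pair 4 were above and 3 below, against 34.9% and 45.5% of 6197 genes. The members' median log2 ratios were -0.02, 0.18 and -0.01, beside 0.01, 0.06 and -0.06 over all those genes. Selenop alone of the 8 was past 2-fold in the P6 and P10 pairs, both lower, which 0.617% and 1.52% of genes were, while 2.62% and 2.74% of genes and 0 of the 8 were past 2-fold higher. In the P9 pair 2.08% of genes were past 2-fold higher and 2.9% past 2-fold lower, and 0 of the 8 were, Selenop being at 1.97. Since the members were chosen from these pairs, nothing is read from the counts about the set.

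A fit over the 4 P6 and P10 libraries with harvest day as a term gave the KO minus WT log2 differences with standard errors. They were -1.88 ± 0.14 (SE) for Selenop, 1.65 ± 0.18 for Gpx3, 0.52 ± 0.10 for Txnrd1, 0.44 ± 0.11 for Gpx1, -0.32 ± 0.11 for Selenom and -0.22 ± 0.11 for Selenok. They were 0.15 ± 0.11 for Selenow, 0.07 ± 0.13 for Gpx4 and -0.04 ± 0.12 for Selenof. The fit has 1 residual degree of freedom. It called 402 genes higher and 222 lower over all genes, and far fewer without the harvest-day term. Fits that left out 1 of the 4 libraries also dropped that term and left 1 library in a group. Nothing is read from the counts of those fits.

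Levels were also compared across the vessel types of brain endothelium over the 6 libraries, each library serving as its own block. The genes, and the lists of related genes described below, were chosen with earlier results of these data known. The adjusted p-values of the vessel tests may therefore not be independent of that choice, and its part in them was not tested. Cells were given a class where the score of 8 marker genes, none of them a selenoprotein gene, stood out. This gave 1327 arterial, 2587 capillary, 1754 venous, 1996 tip and 2021 mitotic cells, with 4480 unassigned and 1575 lying near a class boundary. Arterial markers summed to 1719 to 2483 CPM in arterial and 164 to 283 CPM in capillary cells. Venous markers were higher in venous than in capillary cells in 5 libraries, the exception being KO P6 at 1431 against 1804 CPM, so the venous class is the least sharp. The classes are ranges of a score, not separate cell types. RNA of other cells differed between them too. Pericyte markers summed to 508 to 1465 CPM in arterial, 163 to 1293 in capillary and 151 to 1648 in venous cells, and fibroblast markers to 4.99 to 53.4, 1.45 to 7.67 and 2.65 to 87.7 CPM. In the rapamycin library pericyte markers stood at 1465 CPM in arterial and 1103 in venous cells against 163 in capillary cells.

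Txnrd1 was higher in both larger-vessel classes than in capillary cells. Its capillary level was 31.3, 58.6, 30.8, 50.6, 50.6 and 26.0 CPM in the order WT P6 and KO P6, then WT P10 and KO P10, then vehicle and rapamycin. The arterial level was 59.4, 64.9, 52.3, 72.7, 83.9 and 48.9 CPM, and the venous level 56.2, 71.2, 51.3, 73.2, 66.8 and 56.9 CPM. Arterial and venous cells lay above capillary cells in 6 of 6 libraries. The log2 difference was 0.60 ± 0.11 (SE, n = 6) for arterial minus capillary (adjusted p = 0.000239, edgeR quasi-likelihood test, Benjamini-Hochberg over 10535 genes) and 0.71 ± 0.10 for venous minus capillary (adjusted p = 2.14e-05, edgeR). Arterial and venous cells did not pass the test between them (-0.11 ± 0.10, adjusted p = 0.462, edgeR). With cells classed by the number of markers detected, a rule that left venous sums in only 4 libraries, the arterial and venous differences were 0.25 (adjusted p = 0.372, edgeR) and 0.52 (adjusted p = 0.146, edgeR). Without cells carrying markers of other classes they were 0.61 and 0.39 (adjusted p = 0.00129 and 0.0275, edgeR), and without pericyte-marked cells 0.56 and 0.68.

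Selenow was highest in arterial cells of the 3 classes tested. Its arterial level was 489.7, 439, 409.6, 485, 380.0 and 412 CPM in the same order of libraries, and its capillary level 355, 413, 304, 349, 258 and 338 CPM. Arterial cells were above capillary cells in 6 of 6 libraries, by a log2 difference of 0.33 ± 0.06 (adjusted p = 0.000491, edgeR), and above venous cells in 6 of 6 by 0.20 ± 0.06 (adjusted p = 0.0197, edgeR). The second difference lost its call without WT P6 (adjusted p = 0.0936), without KO P10 (0.0967) or without KO P9 vehicle (0.05003). It also did so with no filter on low counts (0.112), with thinned classes (0.135), with classes from the number of markers (0.0547) and without cells carrying markers of other classes (0.0692).

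Among the same 3 classes, Selenom was highest in capillary cells, apart from KO P10, where arterial cells were highest. These stood at 313, 278, 234, 215, 324 and 273 CPM, against 224, 189.5, 196, 138, 155 and 159.8 CPM in venous and 246, 268, 180.4, 224, 247.5 and 147 CPM in arterial cells. Venous cells were lower in 6 of 6 libraries (log2 -0.56 ± 0.11, adjusted p = 0.000794, edgeR) and arterial cells in 5 of 6 (-0.39 ± 0.11, adjusted p = 0.0155, edgeR). Without KO P9 rapamycin the arterial difference was -0.27, with an adjusted p of 0.101 (edgeR). With classes from the number of markers the venous difference was -0.38 (adjusted p = 0.351, edgeR) and the arterial one -0.43 (adjusted p = 0.102, edgeR). Selenok was lower in venous than in capillary cells by -0.19 ± 0.06 on the log2 scale (adjusted p = 0.0167, edgeR, lower in 6 of 6 libraries). That call was lost without WT P6 (adjusted p = 0.0715), without KO P9 vehicle (0.105) or without KO P9 rapamycin (0.0532), and with classes from the number of markers (0.289).

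Gpx3 rested on few counts in these classes. Arterial cells held 0, 1, 2, 2, 0 and 0 Gpx3 UMIs in the 6 libraries, and venous cells held 14, 22, 5, 10, 10 and 2. The fitted log2 difference was -2.89 ± 0.63 for arterial minus venous (adjusted p = 0.00155, edgeR, lower in 6 of 6) and 1.14 ± 0.40 for venous minus capillary (adjusted p = 0.0356, edgeR, higher in 5 of 6). A fitted fold of counts this low depends on the prior count. With classes made from thinned cells, the first became -0.39 (adjusted p = 0.639) and the second 0.70 (adjusted p = 0.266), and DESeq2 gave the second an adjusted p of 0.110. Without WT P6 the second was 0.82 (adjusted p = 0.128), and without any 1 of the other libraries Gpx3 fell below the filter on low counts.

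Selenop did not pass any of the 3 tests. The differences were 0.03 ± 0.12 for arterial minus capillary (adjusted p = 0.893), -0.09 ± 0.12 for venous minus capillary (0.600) and 0.13 ± 0.12 for arterial minus venous (0.464), all by edgeR. Its capillary level was 5077 CPM in WT P6 and 4726 in WT P10, its arterial level 3820 and 4980.0, and its venous level 5019 and 3434, so the order of classes differed between the WT libraries. Gpx1, Gpx4 and Selenof passed none of the 3 tests either, the lowest adjusted p among them being 0.0640, for Selenof in venous minus capillary cells (-0.17 ± 0.07). That difference passed with no filter on low counts (adjusted p = 0.0453), with classes from the number of markers (0.0132) and without pericyte-marked cells (0.0469).

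Of the 9 genes, 2 were higher and 1 lower in arterial than in capillary cells, where 13.0% and 11.5% of all genes were. In venous minus capillary cells 2 were higher and 2 lower, against 16.4% and 13.8%. In arterial minus venous cells 1 was higher and 1 lower, against 15.3% and 16.0%. The members' median differences were -0.01, -0.03 and 0.13.

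**Figure D4:**
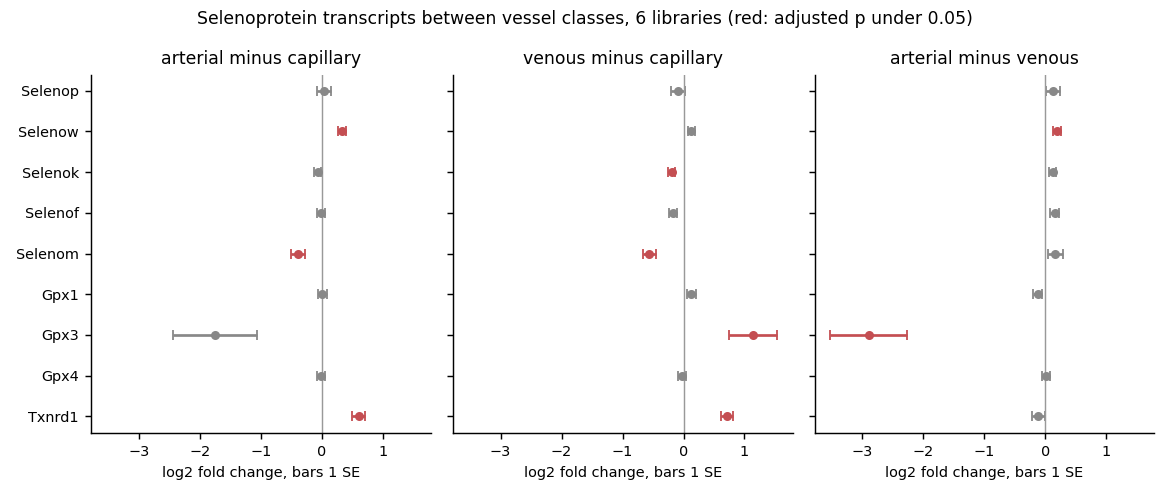
Log2 difference of each gene between vessel classes with its standard error (edgeR fit over 6 libraries with library as a block), red where the adjusted p is under 0.05. Txnrd1 is higher in arterial (0.60) and venous (0.71) than in capillary cells, Selenom is lower in both (-0.39 and -0.56), and Selenop is near 0 in all 3 panels.

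Tip and mitotic cells were looked at after their values were seen, and are given with no test. Selenop was lower in tip than in capillary cells of the same library in 6 of 6 libraries, at 2548, 850.4, 1847, 436, 153 and 319 CPM, which is 0.294 to 0.502 of the capillary level. Mitotic cells held 3366, 648, 1317, 721, 279.9 and 314 CPM, 0.279 to 0.663 of the capillary level. Gpx3 had the opposite order, with tip cells at 8.39, 46.3, 8.91, 40.1, 10.2 and 4.19 CPM and a tip level 3.49 to 15.0 times the capillary level. The capillary Gpx3 level was only 0.280 to 5.58 CPM, so the size of these ratios rests on very few capillary UMIs. Txnrd1 was highest in mitotic cells of every library, at 68.3 to 99.1 CPM, 1.69 to 3.07 times the capillary level. Selenok in mitotic cells was 0.649 to 0.804 of the capillary level, and Selenof 0.765 to 0.884.

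**Figure D5:**
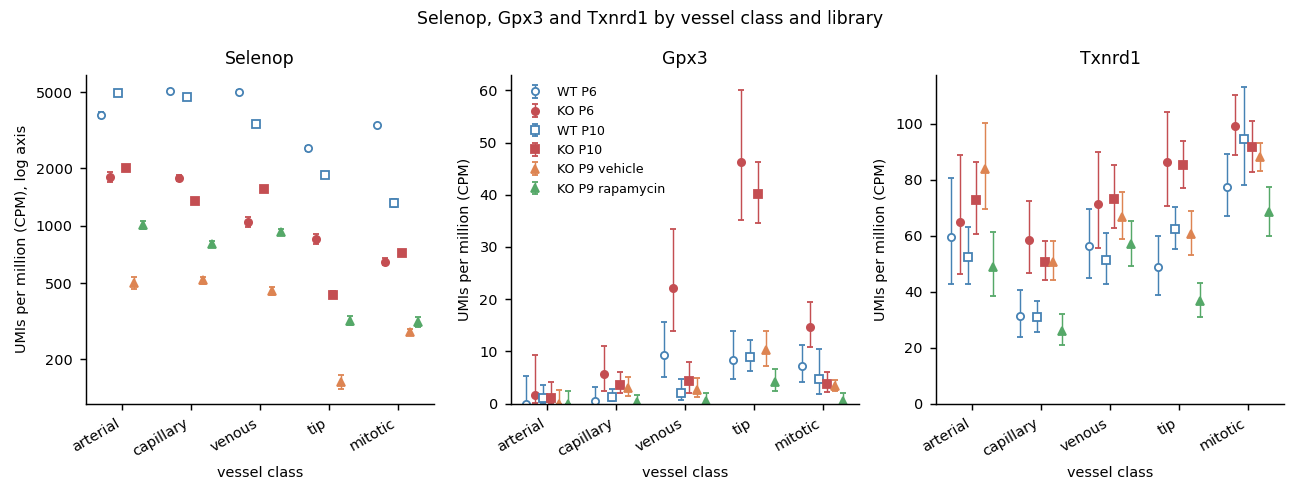
Selenop (log axis), Gpx3 and Txnrd1 in CPM by vessel class, 1 point per library and class. Selenop tip cells lie at 153 to 2548 CPM, below the capillary cells of the same library in all 6, while Gpx3 is highest in tip cells of KO P6 (46.3 CPM) and KO P10 (40.1 CPM).

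Class scores were standardized within each library, so a class is relative to its own library and does not hold matched cells across a pair. Capillary markers in capillary cells summed to 9291 CPM in WT P10 and 5974 in KO P10, and tip markers to 557 and 1413. The pair differences of Selenop were present inside each class so defined. In the P6 pair the log2 ratio was -1.08 in arterial, -1.51 in capillary, -2.25 in venous, -1.58 in tip and -2.38 in mitotic cells. In the P10 pair it was -1.31, -1.80, -1.14, -2.08 and -0.87, and in the P9 pair 1.02, 0.63, 1.03, 1.06 and 0.17. The direction was the same in the 5 classes of each pair, and the sizes were not tested against each other. Gpx1 was also one-sided, at 0.45 to 0.80 in the P6 pair, 0.21 to 0.60 in the P10 pair and -0.83 to -0.13 in the P9 pair. Txnrd1 lay at 0.13 to 0.89 in the P6 pair and -0.94 to -0.23 in the P9 pair, and in the P10 pair at 0.45 to 0.71 apart from mitotic cells at -0.06. In tip cells, which held the highest Gpx3 level of the 5 classes in every library except WT P6, where venous cells stood at 9.26 CPM and tip cells at 8.39, its log2 ratios were 2.34, 2.11 and -1.19.

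Genes around the selenoproteins were taken in 4 lists. These were 15 other selenoprotein genes, 12 genes of selenium uptake and selenocysteine insertion, 21 thioredoxin and glutathione partners, and 9 endoplasmic reticulum partners such as Vcp and Derl2. In the genotype test over the P6 and P10 libraries (edgeR quasi-likelihood, adjusted p under 0.05), which called 3.05% of 13165 genes higher and 1.69% lower in KO, 0 of the 10, 11, 21 and 8 genes tested passed. At an unadjusted p under 0.05 there were 2, 1, 7 and 1, and DESeq2 called 0. The shares of all genes above are for the adjusted cut. None is given for the unadjusted cut, so nothing is read from those counts. Median log2 differences were 0.09, 0.05, 0.12 and 0.22, beside -0.01 over all genes. In counting intervals, the thioredoxin and glutathione list had 8 genes above 1 and 1 below of 16 at P6, 10 and 3 of 16 at P10, and 2 and 11 of 14 at P9. Over all genes of at least 20 CPM the shares were 31.0% above and 25.7% below, 43.3% and 30.1%, and 34.9% and 45.5%. The list's median log2 ratios were 0.15, 0.33 and -0.46, beside 0.01, 0.06 and -0.06 over those genes.

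The vessel class test, which called a larger share of all genes than the genotype test, was read for the same lists. Of 21 thioredoxin and glutathione partners, 6 were higher and 2 lower in arterial than in capillary cells, 8 higher and 1 lower in venous than in capillary cells, and 6 higher and 6 lower in arterial than in venous cells. All genes gave 13.0% higher and 11.5% lower, 16.4% and 13.8%, and 15.3% and 16.0% in these contrasts. DESeq2 called 5 and 2, 7 and 0, and 5 and 5 of the 21. Prdx4, the peroxiredoxin of the endoplasmic reticulum, was higher in arterial than in capillary cells by 0.96 ± 0.12 on the log2 scale (adjusted p = 3.79e-06, edgeR), and Txnip, the thioredoxin-binding inhibitor, by 0.86 ± 0.11 (adjusted p = 4.56e-06, edgeR), both in 6 of 6 libraries. Txn1, the cytosolic substrate of Txnrd1, was higher in venous than in capillary cells (0.52 ± 0.06, adjusted p = 6.74e-06, edgeR) and lower in arterial than in venous cells (-0.66 ± 0.07, adjusted p = 2.93e-07, edgeR), each in 6 of 6 libraries. Slc7a11, the cystine importer that feeds glutathione synthesis, was higher in venous than in capillary cells by 1.95 ± 0.34 (adjusted p = 0.000204, edgeR, 6 of 6), and by 2.16 without pericyte-marked cells. Its counts were low, at 0.698 to 9.69 CPM in capillary and 2.65 to 37.9 CPM in venous cells. All endothelial cells of WT P6 and KO P6 held 35 and 17 Slc7a11 UMIs. The part of fibroblast RNA, which was higher in venous than in capillary cells in 5 of 6 libraries, was not tested for it. The mitochondrial Txn2 was lower in arterial than in capillary cells (-0.43 ± 0.08, adjusted p = 0.000261, edgeR, 6 of 6).

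Lrp8, which encodes the receptor for Selenop, was the gene of the uptake and insertion list that differed between arterial or venous and capillary cells. Of the 10 genes of that list tested, it was the only one called in either contrast. In arterial minus venous cells Lrp8 and Secisbp2l were called higher (adjusted p = 0.0461 and 0.0294, edgeR). Those calls were lost in 8 of 14 alternative settings for Lrp8 and in 7 of 14 for Secisbp2l. Lrp8 stood at 258 to 711 CPM in capillary, 125 to 266 in arterial and 74.1 to 189 in venous cells. The log2 difference was -1.12 ± 0.16 for arterial minus capillary (adjusted p = 2.87e-05, edgeR) and -1.59 ± 0.16 for venous minus capillary (adjusted p = 9.39e-07, edgeR), lower in 6 of 6 libraries each. Its level over all endothelial cells was 173 CPM in WT P6, 134 in KO P6, 199.9 in WT P10, 141 in KO P10, 229 with vehicle and 358 with rapamycin. The order of Lrp8 within the 3 pairs was that of Selenop.

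Of the 10 other selenoprotein genes tested, 1 was higher and 2 lower in arterial than in capillary cells, 4 higher and 2 lower in venous than in capillary cells, and 1 lower in arterial than in venous cells, to be read against the same all-gene shares. DESeq2 called 0 higher and 2 lower, 2 and 2, and 0 and 1. Selenoh, a nuclear selenoprotein, was the one called in all 3, at -0.48 ± 0.09 (adjusted p = 0.000548, edgeR) in arterial minus capillary cells and -0.80 ± 0.09 (adjusted p = 1.52e-06, edgeR) in arterial minus venous cells, lower in 6 of 6 libraries each. It was at 204, 207, 121 and 204 CPM in the P6 pair and then the P10 pair (WT before KO), at 289 with vehicle and at 142 with rapamycin. Its arterial minus capillary call was lost with classes from thinned cells (adjusted p = 0.761, edgeR). The arterial minus venous call of Selenoh was lost with classes from the number of markers (adjusted p = 0.243, edgeR). Its venous minus capillary call was lost in 3 of 14 alternative settings. Selenoo was lower in venous than in capillary cells (-0.73 ± 0.15, adjusted p = 0.00101, edgeR, 6 of 6). Of 8 endoplasmic reticulum partners, 0 passed in arterial minus capillary cells by edgeR or DESeq2, with 0 at an unadjusted p under 0.05, and Sel1l alone passed in each of the other contrasts.

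Over the 18 sums of 6 libraries and the arterial, capillary and venous classes, the genes whose log2 CPM was most like that of Selenop were Sptssa (Pearson r = 0.94), Gtf2a2 (0.91), Cdip1 (0.91), Cirbp (0.90) and Ube2e3 (0.90), among 2883 genes ranked. The sums of 1 library share its cells' handling and depth, and the P9 sums differ from the others in barcode list and depth, so the values are descriptions over points that are not independent. Over the 12 sums of the P6 and P10 libraries alone, a setting chosen after the data were seen, the 5 genes had r of 0.85, 0.81, 0.74, 0.81 and 0.69. Sptssa, a small subunit of serine palmitoyltransferase, stood at 351 CPM in WT P6, 213 in KO P6, 334 in WT P10, 250.1 in KO P10, 127 with vehicle and 170.1 with rapamycin. Among the members, r over the 18 sums was 0.81 for Selenok, 0.77 for Selenof, 0.35 for Selenow, 0.14 for Selenom, 0.10 for Gpx3, -0.29 for Txnrd1, -0.30 for Gpx4 and -0.44 for Gpx1. Over the 12 P6 and P10 sums it was 0.39 for Selenok, 0.14 for Selenof, -0.24 for Selenow, 0.28 for Selenom, -0.59 for Gpx3, -0.64 for Txnrd1, -0.18 for Gpx4 and -0.87 for Gpx1. The values for Selenok and Selenof thus rested largely on the P9 sums, and those of Selenow and Gpx3 changed sign without them.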

How the data were processed

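Cells were sorted by flow cytometry (gate not given in the sources used here) and captured with 10x Genomics 3' version 2 chemistry, per the labels' protocols. UMI counts per gene and barcode, raw and not normalized, were deposited for each library, made with Cell Ranger 6.0.1 and mm10 per the submitters' processing notes. The members and gene lists were chosen with earlier results of these data known. Endothelial counts were summed per library (10807651 to 40197132 UMIs over all barcodes), with exact Poisson and Clopper-Pearson intervals at 95%. No doublet caller was run. Cells with UMIs of at least 2 markers of another class were left out as an alternative. The P9 libraries carry barcodes of another list than the P6 and P10 libraries and were compared only with each other in the pairs. The vessel class test takes each library as its own block, and the ranking of genes like Selenop used all 6 libraries. Log2 CPM used a prior count of 2.

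Vessel classes needed a mean marker z-score of at least 0.5 and a lead of 0.25, and mitotic cells at least 3 of 12 markers. Sums of at least 20 cells per library and class entered edgeR 4.0.16 (R 4.3.3), scaled by TMM and filtered by filterByExpr, in a quasi-likelihood fit with library as a block (10 residual degrees of freedom) and Benjamini-Hochberg adjustment at 0.05. The genotype fit used 4 libraries and harvest day. DESeq2 1.42.0 was an alternative. The tests were tested on simulated data. Sums and intervals used Python 3.11.15, NumPy 2.4.6, SciPy 1.17.1 and pandas 2.3.3. Named are all members and, from each list and test, at most 6 called genes with the largest difference. Genes like Selenop were ranked among those averaging at least 50 CPM, and 5 are named.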

Additional observations from a re-analysis of the deposited data

Results flagged for a closer look

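Pair differences that pointed in opposite directions between vessel classes, with counting intervals on either side of no difference, were found for 2 of the 9 genes. The rule was applied to the 9 genes only, so no share over all genes stands beside this count and nothing is read from it. None of these differences between classes was tested, since each class of each pair is 1 library against 1. In the P10 pair, KO over WT, Selenof had a log2 ratio of 0.15 in arterial cells and -0.18 in venous cells. In the same pair Selenom was at 0.31 in arterial cells, against -0.51 in venous, -0.31 in tip and -0.85 in mitotic cells. In the P9 pair, rapamycin over vehicle, Selenof was at -0.21 in arterial cells, against 0.19 in capillary, 0.12 in venous, 0.11 in tip and 0.19 in mitotic cells. The arterial class held the fewest cells over all libraries, 80 to 418 per library.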

How the results depend on the processing

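The direction of the Selenop log2 ratio was kept under every alternative run. Its size in the P6 pair was -1.82 as a mean over cells, -1.97 without cells with markers of other classes, -2.03 without pericyte-marked cells, -1.74 without mitotic cells and -1.86 without the top 5% of cells. In the P10 pair these were -1.71, -1.79, -1.83 and -1.73 for the first 4, and -1.82 scaled by the median of all genes. In the P9 pair it was 1.03 scaled by the median of all genes, 1.03 as a mean over cells, 1.05 without cells with markers of other classes and 0.92 with at most 5% mitochondrial UMIs. Members with an interval above 1 in the P6 pair numbered 1 without cells with markers of other classes.

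The genotype test called 402 genes higher and 222 lower, but 1197 and 813 without a filter, 1 and 0 without the age term, 140 lower with DESeq2, and 2 to 23 higher and 0 to 2 lower leaving out 1 library. Leaving out 1 library also dropped the age term and left 1 library in a group. The lower counts of those fits therefore cannot be assigned to the missing library, and nothing is read from them. No paired analysis was possible because each group has 1 library, so its replicate number pairs nothing. Harvest day in the genotype fit and library in the vessel fit were terms of the main fits.

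Classes from the number of markers gave 1 member higher and 0 lower in arterial minus capillary cells, 0 and 1 in venous minus capillary and 0 lower in arterial minus venous. Over all genes they gave 641 higher and 552 lower in venous minus capillary cells and 662 and 748 in arterial minus venous. Thinned classes gave 1 member higher in venous minus capillary, and 0 higher, 0 lower and 1058 genes higher in arterial minus venous. Without cells with markers of other classes, venous minus capillary had 992 genes higher, 941 lower and 1 member higher, and arterial minus venous had 0 members lower. Without pericyte-marked cells arterial minus venous had 2 members higher. With no filter, 2 members were lower in arterial minus capillary and 0 higher in arterial minus venous, and DESeq2 gave 1 member higher in venous minus capillary. The 4 P6 and P10 libraries gave 797 genes and 0 members lower in arterial minus capillary, 885 genes and 1 member lower in venous minus capillary, and 0 members higher in arterial minus venous. Leaving out 1 library gave 0 to 1 members lower in arterial minus capillary, 1 higher and 1 to 2 lower in venous minus capillary, and 0 to 2 higher and 0 to 1 lower in arterial minus venous.

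In venous minus capillary cells 3 called genes changed sign: Selenoh (-0.24) and Prdx1 (-0.0015) with classes from the number of markers, and Gpx8 without cells with markers of other classes (-0.50) or without pericyte-marked cells (-0.35). Fewer cells or libraries entered those fits, and the cause was not tested. Depth limits Gpx3, with 28 UMIs in the smallest sum.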
